A study of Mus musculus with 6 samples.

Results

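Tight junction genes of the mouse kidney were described as 9 rows of the gene count table, chosen by symbol, out of 24434 gene symbols in all. They were the claudins Cldn1, Cldn2, Cldn3, Cldn4, Cldn7 and Cldn8, the MARVEL-domain proteins occludin (Ocln) and tricellulin (Marveld2), and the scaffold ZO-1 (Tjp1). The claudins of the thick ascending limb were not part of the selection. All 9 symbols were found, and all 9 passed the filter on low counts. The RNA came from whole kidneys of mice fed normal chow, with 3 libraries labelled db/db, the diabetic model, and 3 labelled db/m, the control. The db allele disrupts the leptin receptor. The sources used here do not give the age, sex or strain background, or whether each library came from its own animal. The p-values therefore reflect only the spread among the 6 libraries, which may be technical.

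Tight junctions seal the space between neighbouring epithelial cells and set which ions and how much water can pass between them. Claudins form the strands of the junction, and each nephron segment carries its own mixture, some members acting as pores and others as barriers. Occludin and tricellulin share a MARVEL membrane domain, tricellulin being concentrated where 3 cells meet, and ZO proteins tie the strands to actin inside the cell. In the kidney, claudin-2 is the cation and water pore of the proximal tubule, claudin-1 marks the parietal cells of Bowman's capsule, and claudins 3, 4, 7 and 8 belong to the distal nephron and collecting duct, where claudins 4 and 8 are linked to chloride passage.

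Total counts were 25937756 to 35931140 per library, and single counts of the 9 genes ran from 127 to 15308. Lepr, the gene altered in db/db mice, was at 2.54 to 5.66 CPM (counts scaled to library size) under the db/db label and 2.48 to 3.61 CPM under the db/m label, which does not check the labels, since the allele changes splicing rather than the gene total. Kidney epithelium markers were high in every library, with Slc34a1, the proximal phosphate transporter, at 4033 CPM or more. Some libraries stood apart in markers of the renal pelvis and inner medulla. In db/db replicate 2, 6 of 7 urothelial markers had 0 counts, as did Slc14a2, the urea transporter of the inner medulla and thin limb. The 7 urothelial markers summed to 1.35 CPM there, to 20.5 and 65.9 CPM in db/db replicates 1 and 3, and to 55.7 to 132 CPM under the db/m label. Summed adipocyte markers were 67.8 and 140.3 CPM in db/m replicate 3 and db/db replicate 3, and 0.674 to 5.31 CPM in the other libraries. Summed markers of the thick ascending limb (2520 to 4946 CPM), descending thin limb (769.9 to 1090 CPM), injured tubule (336.2 to 610.7 CPM), endothelium (143.0 to 257.4 CPM) and leukocytes (9.52 to 20.1 CPM) overlapped between groups. Results for the tight junction genes are therefore also given without these libraries.

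Of the 9 genes, Cldn1 and Tjp1 fell in the libraries labelled db/db, by 2.40-fold and 1.41-fold, and 7 did not pass the test. The proximal pore claudin Cldn2, the most abundant of the 9, was at nearly the same level in both groups. The collecting duct claudins Cldn4, Cldn7 and Cldn8 averaged lower and Cldn3 averaged higher, with overlapping groups in each case. A call was an adjusted p below 0.05 in the edgeR quasi-likelihood test with Benjamini-Hochberg adjustment over all 16373 genes tested. The 2 of 9 called make 22.2%, against 24% of all genes tested (13.1% higher and 10.8% lower), so the share called was near the background. For higher calls among the 9 the count was 0 in edgeR, in DESeq2 and in limma-voom, and 0 at an unadjusted p below 0.05. The median log2 fold change of the 9 was -0.22, and that of all genes tested was -0.057. All results are on libraries scaled by trimmed mean factors (TMM), which differed between the groups, from 1.062 to 1.122 for db/m and from 0.9006 to 0.9225 for db/db. With scaling by total counts alone the median of all genes moved to -0.318 and that of the 9 genes to -0.484, Cldn3 turned to -0.10, and Cldn7 also passed (adjusted p = 0.0341). That scaling called 1072 genes higher and 4883 lower, against 2151 and 1774 with TMM.

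**Figure D1:**
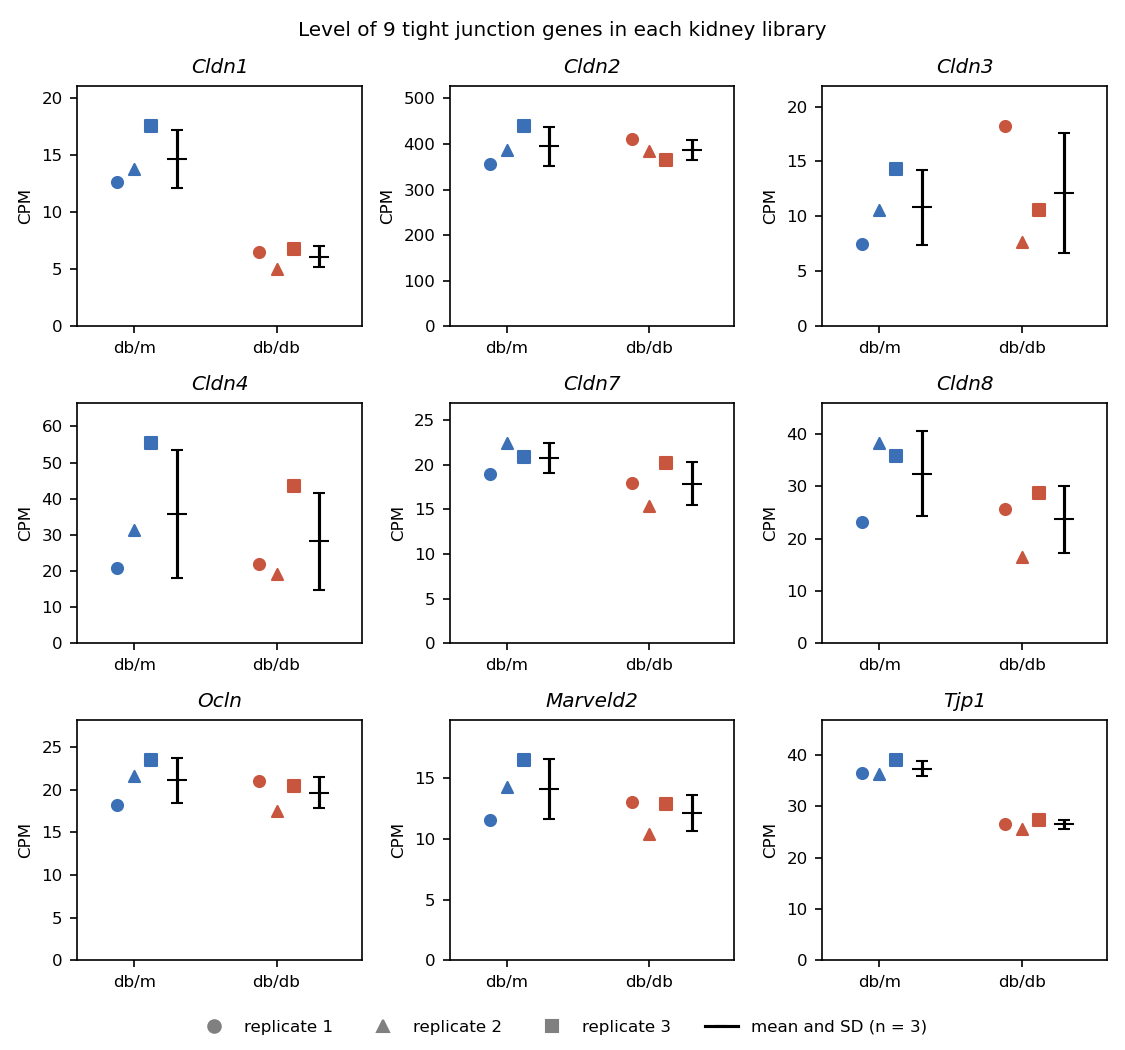
Each panel plots 1 gene, with CPM on a linear axis from 0 and the libraries grouped by label. Symbols mark the 3 libraries of a group, and bars give the mean and SD. Groups are apart for Cldn1 (12.6 to 17.6 against 5.03 to 6.75 CPM) and Tjp1 (36.4 to 39.0 against 25.6 to 27.4 CPM) and overlap for the other genes.

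Averaged over all 6 libraries, Cldn1 had the lowest level per length of the 9 genes, while under db/m alone it was level with Marveld2. It stood at 12.6, 13.8 and 17.6 CPM in db/m replicates 1 to 3 and at 6.502, 5.03 and 6.75 CPM in db/db replicates 1 to 3. Every db/db library was below every db/m library, and db/db replicate 2 was the lowest. The groups also failed to overlap in 44.6% of all genes tested, 22.2% with db/db lower. The means were 14.7 ± 2.57 and 6.10 ± 0.929 CPM (SD, n = 3 each), so the level fell by 58.4%. Its log2 fold change was -1.26 (SE 0.19, 95% interval -1.70 to -0.83, edgeR adjusted p = 0.00398). Cldn1 passed under all 16 other settings run, with log2 fold changes of -1.53 to -1.11. Without db/db replicate 2 it was -1.14 (adjusted p = 0.0165), and without both libraries rich in adipocyte markers -1.19 (adjusted p = 0.0332). In bulk tissue, fewer cells of a type and less RNA per cell cannot be told apart. Of 3 listed parietal epithelium markers, the transcription factor gene Pax2, which is also active in the collecting duct, fell from 50.5 ± 6.005 to 19.4 ± 5.19 CPM (log2 fold change -1.38, SE 0.20, adjusted p = 0.00357). Akap12, at 19.2 ± 8.40 and 17.2 ± 7.61 CPM, and Ncam1 did not pass. The 3 markers summed to 58.7 to 86.9 CPM in db/m libraries and 28.7 to 47.5 CPM in db/db libraries, and none was at 0 in any library. Of 5 podocyte markers, which share the glomerulus, 1 fell (20% called, against 24% of all genes tested, 10.8% lower). Their sum was 307.1 to 370.2 against 226.1 to 311.0 CPM. The 4 descending thin limb markers had a median log2 fold change of -1.16, but 0 passed and their sum overlapped between groups. Summed urothelial markers, like Cldn1, were lowest in db/db replicate 2 (1.35 CPM) and highest in db/m replicate 3 (132 CPM), but overlapped between groups. The part of any of these cells in the Cldn1 result was not tested.

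Tjp1 varied least between libraries of a group. It was at 36.5, 36.4 and 39.0 CPM in db/m replicates 1 to 3 and at 26.6, 25.6 and 27.4 CPM in db/db replicates 1 to 3. The highest library of a group exceeded the lowest by 1.07-fold in both groups, and the groups did not overlap. The means of 37.3 ± 1.47 and 26.5 ± 0.872 CPM (SD, n = 3 each) gave a log2 fold change of -0.49 (SE 0.080, 95% interval -0.68 to -0.30, edgeR adjusted p = 0.00631). Tjp1 passed under 15 of 16 other settings. With db/m replicate 3 and db/db replicate 3 both left out its log2 fold change was -0.48, and it did not pass (adjusted p = 0.059), with 2 libraries in each group. Tjp3, which encodes the related scaffold ZO-3, was at 16.4, 19.9 and 23.2 CPM under db/m and 11.9, 13.9 and 15.4 CPM under db/db, also without overlap, and narrowly missed the threshold (log2 fold change -0.53, SE 0.16, adjusted p = 0.052). Whether Tjp1 and Tjp3 differ from each other in their change was not tested.

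Promoter sequences are shown for the pair of genes that fell and, beside them, for Cldn2, which did not pass, and Cldn4, which had the widest range over libraries. They are the 250 bases before the start site, 5′ to 3′, from RefSeq on GRCm38.p6, matched by symbol. The sources used here do not name the build behind the count table. Of the 9 genes 8 had a promoter in that set. Capitals mark matches, on either strand, to 5 motifs: CACCTG, the E-box bound by Snail and Zeb repressors, AACCNGTT of grainyhead-like factors, the TATA motif TATAAA, the GC box GGGCGG and the HNF1 motif. The Cldn1 stretch lies at chr16:26371840-26372089 (minus strand), that of Tjp1 at chr7:65371245-65371494 (minus strand), that of Cldn2 at chrX:139800558-139800807 (plus strand) and that of Cldn4 at chr5:134946935-134947184 (minus strand).
Cldn1: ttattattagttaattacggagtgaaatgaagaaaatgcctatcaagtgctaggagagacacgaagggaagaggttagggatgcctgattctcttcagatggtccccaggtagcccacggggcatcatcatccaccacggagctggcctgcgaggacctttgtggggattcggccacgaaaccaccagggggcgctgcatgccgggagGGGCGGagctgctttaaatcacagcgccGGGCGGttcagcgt
Tjp1: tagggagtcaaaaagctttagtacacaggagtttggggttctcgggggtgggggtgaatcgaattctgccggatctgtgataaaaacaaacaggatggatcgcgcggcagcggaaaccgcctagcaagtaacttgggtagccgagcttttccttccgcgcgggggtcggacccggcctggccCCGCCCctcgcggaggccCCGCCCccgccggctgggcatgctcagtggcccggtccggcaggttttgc
Cldn2: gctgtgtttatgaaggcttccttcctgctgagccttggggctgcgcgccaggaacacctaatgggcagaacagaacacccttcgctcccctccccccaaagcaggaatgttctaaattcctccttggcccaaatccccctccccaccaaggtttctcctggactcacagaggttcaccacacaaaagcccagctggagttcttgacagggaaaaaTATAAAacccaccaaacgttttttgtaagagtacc
Cldn4: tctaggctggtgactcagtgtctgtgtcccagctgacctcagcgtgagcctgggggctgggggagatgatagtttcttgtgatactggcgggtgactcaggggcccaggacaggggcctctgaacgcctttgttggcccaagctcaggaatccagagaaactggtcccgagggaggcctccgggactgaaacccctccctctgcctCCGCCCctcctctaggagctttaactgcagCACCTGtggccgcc
The Cldn1 stretch held GC boxes beginning 42 and 14 bases before the start site, and that of Tjp1 held GC boxes, on the reverse strand, beginning 68 and 50 bases before it. GC boxes occurred in 51.8% of the promoters of tested genes, so they are common. They also lay before at least 1 start site of Cldn3, Cldn4, Cldn7, Ocln and Marveld2. The Cldn2 stretch held a TATA motif 35 bases before the start and no GC box. A TATA motif anywhere in the 250 bases, on either strand, occurred in 7.27% of promoters of tested genes. Marveld2 also had such a match before each of its start sites. The Cldn4 stretch held an E-box 14 bases before the start and a GC box 44 bases before it. E-boxes also occurred before 1 of 2 start sites of Cldn7 and 1 of 2 of Ocln, and in 16.5% of promoters of tested genes. No match to the grainyhead-like or HNF1 sequences lay in these windows for any of the 8 genes, and those sequences occurred in 1.67% and 0.00611% of promoters of tested genes. Matches are a description of letters and not of binding.

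Cldn2 was at 356.5, 387.5 and 439.1 CPM in db/m replicates 1 to 3 and at 411.1, 383.4 and 365.5 CPM in db/db replicates 1 to 3. The db/db libraries lay within the range of the db/m libraries. The means were 394.4 ± 41.7 and 386.7 ± 23.0 CPM (SD, n = 3 each), and the log2 fold change was -0.03 (SE 0.10, edgeR adjusted p = 0.86). The 95% interval ran from -0.27 to 0.21, which bounds a difference in either direction but does not show that the groups were alike. Summed markers of the proximal tubule were 7998 to 11121 CPM in db/m libraries and 10292 to 12959 CPM in db/db libraries. Relative to that sum, the Cldn2 level differed by -0.33 on the log2 scale (exact permutation test, two-sided, p = 0.3, adjusted p = 0.643 over 9 ratios). Without Slc34a1, the most abundant marker of the sum, the difference was -0.065. With 3 against 3 libraries this test cannot go below 0.1. Cldn10, a claudin with an anion pore form in the proximal tubule, was higher in each db/db library (133.8 to 168.2 against 86.4 to 125.6 CPM) without passing the test (log2 fold change 0.47, SE 0.15, adjusted p = 0.0634). Its row counts all forms and all nephron segments together, so the difference cannot be assigned to the proximal form.

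The 4 claudins of the distal nephron and collecting duct had overlapping groups. Cldn8 was at 23.2, 38.3 and 35.8 CPM in db/m replicates 1 to 3 and at 25.8, 16.5 and 28.8 CPM in db/db replicates 1 to 3. The lowest value was that of db/db replicate 2, and db/m replicate 1 lay among the db/db libraries. Its means of 32.4 ± 8.12 and 23.7 ± 6.39 CPM (SD, n = 3 each) gave a log2 fold change of -0.45 (SE 0.25, 95% interval -1.04 to 0.14, edgeR adjusted p = 0.224). Without db/db replicate 2 it was -0.24 (adjusted p = 0.483).

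Cldn4 had the widest range. It was at 20.8, 31.4 and 55.4 CPM in db/m replicates 1 to 3 and at 22.035, 19.1 and 43.6 CPM in db/db replicates 1 to 3. In both groups replicate 3 was far above the others, and the highest db/m library exceeded the lowest by 2.67-fold. The log2 fold change was -0.34 (SE 0.42, 95% interval -1.33 to 0.64, edgeR adjusted p = 0.576), and it became 0.13 without db/m replicate 3 and -0.80 without db/db replicate 3 (adjusted p = 0.835 and 0.217). Cldn4 is also expressed in urothelium, and the libraries highest in Cldn4 were those with the highest sums of urothelial markers, 132 and 65.9 CPM. They were also the libraries rich in adipocyte markers. Db/db replicate 2, with the lowest urothelial sum (1.35 CPM), had the lowest Cldn4 level. The order did not hold between these extremes. Db/m replicate 1, with a urothelial sum of 56.6 CPM, had less Cldn4 than db/db replicate 1, with a sum of 20.5 CPM. The part of urothelial cells and adipocytes in the Cldn4 values was not tested.

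Cldn7, which binds the adhesion protein EpCAM, was at 19.0, 22.4 and 20.8 CPM in db/m replicates 1 to 3 and at 17.9, 15.4 and 20.2 CPM in db/db replicates 1 to 3. The groups overlapped only through db/m replicate 1 and db/db replicate 3. Its log2 fold change was -0.22 (SE 0.13, 95% interval -0.52 to 0.087, edgeR adjusted p = 0.257), and it was -0.12 without db/db replicate 2. Cldn3, a barrier claudin, was at 7.49, 10.6 and 14.4 CPM in db/m replicates 1 to 3 and at 18.2, 7.65 and 10.5 CPM in db/db replicates 1 to 3. The highest library, db/db replicate 1, set the sign of the difference. The log2 fold change was 0.16 (SE 0.35, 95% interval -0.66 to 0.99, edgeR adjusted p = 0.759), and it was -0.25 without db/db replicate 1.

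Principal cells are the main sodium and water transporting cells of the collecting duct. Of 8 principal cell markers, 2 fell (25% called, against 24% of all genes tested, 10.8% lower). Aqp2, the vasopressin-regulated water channel, was at 720.8 ± 171 and 337.9 ± 82.3 CPM (log2 fold change -1.09, SE 0.23, edgeR adjusted p = 0.0154), whereas Hsd11b2, which inactivates glucocorticoids in these cells, had -0.06 (SE 0.16, adjusted p = 0.797). The marker sum was 962.9 to 1484 CPM in db/m libraries and 634.1 to 798.7 CPM in db/db libraries. All 4 markers of the distal convoluted tubule, which also carries these claudins, fell (100% called, against 24% of all genes tested). Their sum was 927.0 to 1318 CPM in db/m libraries and 577.8 to 681.4 CPM in db/db libraries. Relative to the principal cell sum, Cldn3, Cldn4, Cldn7 and Cldn8 averaged higher under db/db, by 0.79, 0.35, 0.45 and 0.21 on the log2 scale. The exact permutation p was 0.1 for Cldn7, whose ratio did not overlap between groups, and 0.2 to 0.5 for the other claudins, with adjusted p of 0.6 or more. Without Aqp2, the most abundant marker of the sum, the differences for Cldn3, Cldn4, Cldn7 and Cldn8 were 0.32, -0.13, -0.02 and -0.26. Relative to the intercalated cell sum (297.0 to 449.4 against 339.4 to 397.1 CPM), Cldn3, Cldn4, Cldn7 and Cldn8 differed by 0.13, -0.32, -0.22 and -0.45, with exact permutation p of 0.4 to 0.8.

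Occludin and tricellulin did not pass. Ocln was at 18.2, 21.6 and 23.5 CPM in db/m replicates 1 to 3 and at 21.0, 17.6 and 20.4 CPM in db/db replicates 1 to 3. The groups overlapped widely, with a log2 fold change of -0.10 (SE 0.13, 95% interval -0.41 to 0.20, edgeR adjusted p = 0.587). Marveld2 was at 11.6, 14.3 and 16.5 CPM in db/m replicates 1 to 3 and at 13.0, 10.4 and 12.9 CPM in db/db replicates 1 to 3. Its log2 fold change was -0.22 (SE 0.17, 95% interval -0.61 to 0.17, edgeR adjusted p = 0.362), again with overlapping groups. Without db/db replicate 2 the log2 fold changes of Ocln and Marveld2 were -0.023 and -0.12. Without db/m replicate 3 they were -0.010 and -0.085. These 2 genes are neighbours on chromosome 13. Of all 36 pairs among the 9 genes, their ratio varied least over the 6 libraries, from 0.51 to 0.75 on the log2 scale. Cldn3 and Cldn4 are neighbours on chromosome 5, and their levels differed in pattern, Cldn3 being highest in db/db replicate 1 and Cldn4 in db/m replicate 3. Among the other protein-coding neighbours, P3h2 beside Cldn1 fell (log2 fold change -0.75, SE 0.12, adjusted p = 0.00541), while Cldn16 on its other side had 0.29 (SE 0.27, adjusted p = 0.467). Abhd11 beside Cldn3 and Gtf2h2 beside Ocln rose, by 0.38 (SE 0.099) and 0.53 (SE 0.12).

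**Figure D2:**
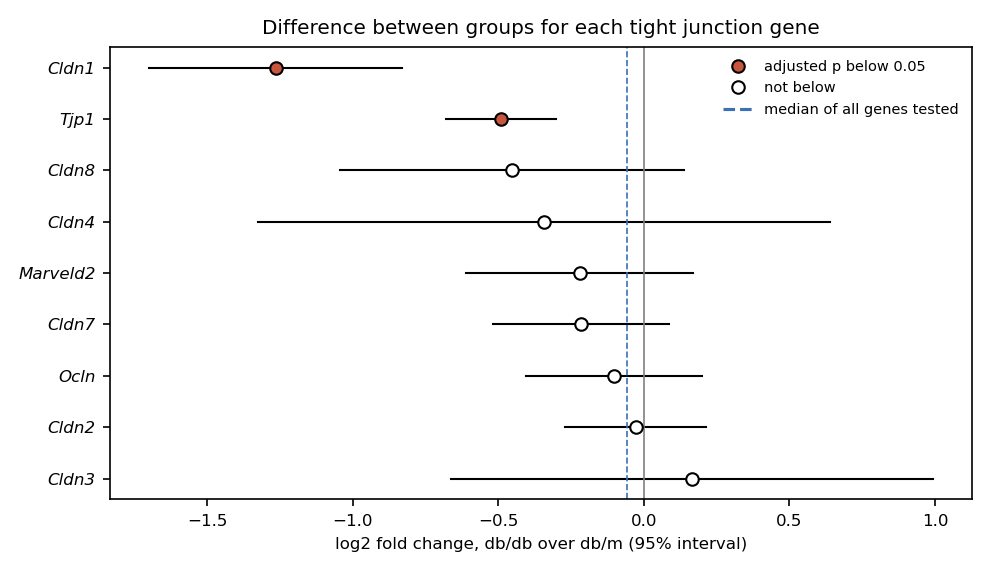
Points give the log2 fold change of each gene (horizontal axis, db/db over db/m) with its 95% interval, filled where the adjusted p was below 0.05. The intervals of Cldn1 and Tjp1 end at -0.83 and -0.30, those of the other 7 genes include 0, and the dashed line marks the median of all genes tested at -0.057.

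Levels of different genes were compared per length, as CPM per kilobase of the longest principal transcript in GENCODE M21, an annotation that may not be the authors'. Under db/m, Cldn2 stood at 129.6 ± 13.7 CPM per kilobase, well above the rest. Cldn4 (19.7 ± 9.77), Cldn7 (15.5 ± 1.29) and Cldn8 (13.8 ± 3.45) followed and did not differ beyond their spread. Cldn3 came next at 8.59 ± 2.73 CPM per kilobase. Tjp1 (5.29 ± 0.209), Ocln (5.21 ± 0.659), Marveld2 (4.53 ± 0.789) and Cldn1 (4.51 ± 0.791) were lowest, and neighbours among them lay within their spread. Under db/db the order of the upper 5 was the same, with Cldn2 at 127.0 ± 7.55 CPM per kilobase. Cldn1 was then last, at 1.88 ± 0.286, below Tjp1 at 3.77 ± 0.124 and Marveld2 at 3.89 ± 0.469 CPM per kilobase. Of the summed level per length of the 9 genes, Cldn2 made up 60.4% to 72.4% in each library and Cldn1 2.07% to 2.26% in db/m libraries and 0.891% to 1.07% in db/db libraries.

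Within groups, the same libraries were often the lowest or highest of the 9 genes. In 8 of 9, with Tjp1 the exception, db/m replicate 1 was the lowest of its group, and this held for 35.7% of all genes tested. In 8 of 9, with Cldn2 the exception, db/db replicate 2 was the lowest of its group, as it was for 34.1% of all genes tested. In 7 of 9, with Cldn7 and Cldn8 the exceptions, db/m replicate 3 was the highest of its group, against 34.4% of all genes tested. The highest db/db library was replicate 3 for 5 genes and replicate 1 for 4. These shares describe 6 libraries, and the genes are not independent of each other.

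**Figure D3:**
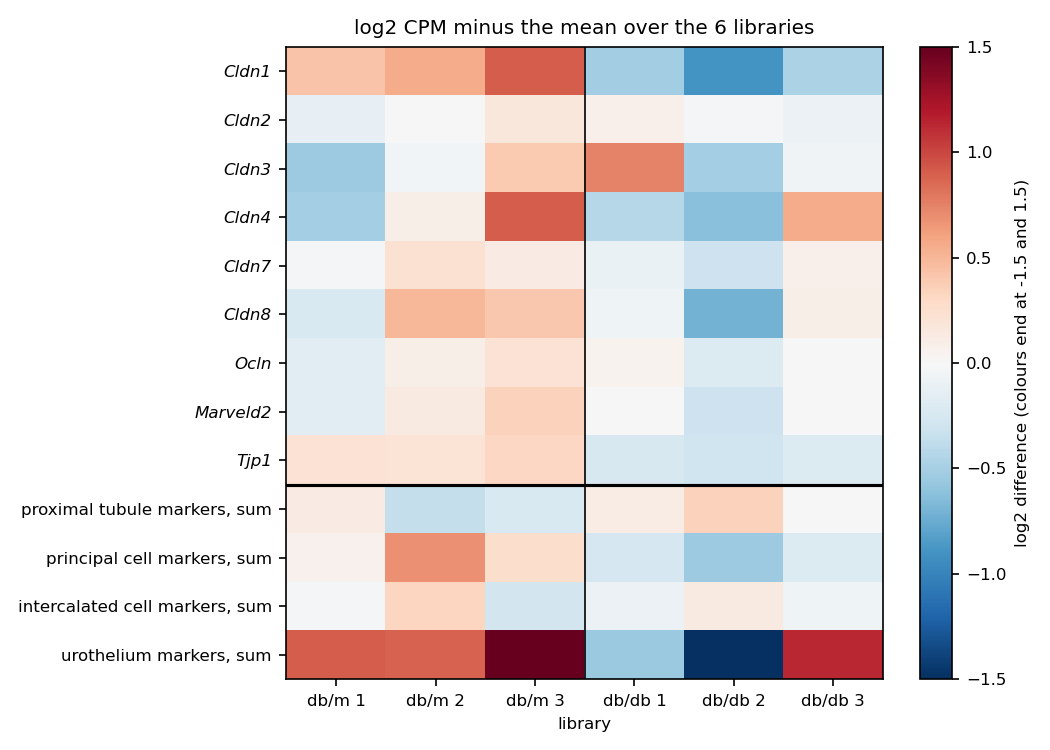
Colours show log2 CPM minus the mean over the 6 libraries for the 9 genes (upper rows) and for summed marker lists (lower rows), with libraries in columns. Cldn1 and Tjp1 separate the groups, while Cldn4 is highest in both replicates 3 and the urothelial sum is lowest in db/db replicate 2, at 1.35 CPM.

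Other junction genes were grouped into 6 lists of 89 symbols, of which 83 were tested. In all 21 fell and 3 rose, so 28.9% were called, against 24% of all genes tested, and 25.3% were lower, against 10.8%. With 1 library left out the lower calls numbered 9 to 20, and they were 10 without db/m replicate 2, 13 without db/m replicate 3, and 11, 11 and 9 without db/db replicates 1, 2 and 3. The higher calls numbered 1 to 5 in these fits. The lists were chosen with earlier results of these data known. Among the other claudins 2 of 11 tested rose (18.2% called, below the 24% of all genes) and 0 fell in edgeR (3 were lower at an unadjusted p below 0.05, 1 by DESeq2 and 0 by limma-voom), with a list median of -0.31. Cldn18, a claudin of stomach and lung, had 0 counts in each db/m library and 32, 34 and 23 counts under db/db. At a mean of 1.16 CPM it was at least 10.6-fold higher than the floor of 3 counts in a db/m library (0.109 CPM). Cldn6, an embryonic claudin, rose from 0.741 ± 0.264 to 1.89 ± 0.283 CPM (log2 fold change 1.33, SE 0.35, adjusted p = 0.031). Both are at low levels. Cldn22, at 0.436 to 0.482 CPM in db/db libraries and 0.763 to 1.39 CPM in db/m libraries, had -1.08 (SE 0.36, adjusted p = 0.068).

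Of 9 other membrane proteins of the junction, 2 fell (22.2% called, against 24% of all genes tested, 10.8% lower). In this list 0 rose (1 was higher at an unadjusted p below 0.05, and 0 by DESeq2 or limma-voom), and the median was -0.21. The junctional adhesion molecule gene Jam3 was at 26.02 ± 4.19 and 17.9 ± 1.996 CPM (log2 fold change -0.54, SE 0.15, adjusted p = 0.0341). Marveld1, a MARVEL-domain gene, was at 36.2 ± 5.20 and 27.0 ± 1.26 CPM (log2 fold change -0.42, SE 0.12, adjusted p = 0.0411). Lsr encodes angulin-1, which recruits tricellulin to 3-cell contacts, and had 0.21 (SE 0.087, adjusted p = 0.116).

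Of 16 scaffolds and plaque proteins, 5 fell (31.2% called, against 24% of all genes tested, 10.8% lower). In this list 0 rose (1 was higher at an unadjusted p below 0.05, and 0 by DESeq2 or limma-voom), and the median was -0.26. Arhgef2, a junction-bound guanine nucleotide exchange factor gene, was at 73.7 ± 8.18 and 41.8 ± 4.08 CPM (log2 fold change -0.82, SE 0.11, adjusted p = 0.00336). Arhgef18, another exchange factor gene, had -0.65 (SE 0.14) and Magi3, a membrane scaffold, -0.64 (SE 0.14). Patj, a scaffold of the Crumbs complex, had 0.21 (SE 0.090, adjusted p = 0.125).

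Polarity genes, which place the junction at the top of the cell side, held 4 falls and 1 rise among 12 tested. This was 41.7% called, against 24% of all genes tested, and the list median was -0.26. Pard6b was at 52.3 ± 5.84 and 31.3 ± 0.809 CPM (log2 fold change -0.74, SE 0.10, adjusted p = 0.00302). Its partner kinase gene Prkci averaged 31.2 ± 1.90 and 21.1 ± 0.129 CPM, and its log2 difference was -0.56 (SE 0.087, adjusted p = 0.0049). Llgl1, a basolateral polarity gene that overlaps Flii, had -0.63 (SE 0.099). Mpp5, which encodes the Crumbs complex scaffold PALS1, was at 50.02 ± 3.14 and 65.0 ± 3.03 CPM (log2 fold change 0.38, SE 0.083, adjusted p = 0.0172).

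Of 11 adherens junction genes, 3 fell (27.3% called, against 24% of all genes tested, 10.8% lower). In this list 0 rose (0 also by DESeq2, by limma-voom and at an unadjusted p below 0.05), and the median was -0.12. Nectin1 and Nectin2, which encode adhesion proteins, had log2 fold changes of -0.79 (SE 0.12) and -0.42 (SE 0.084), and the cadherin gene Cdh6 had -1.72 (SE 0.48, adjusted p = 0.0388). Jup, which encodes plakoglobin, had 0.14 (SE 0.089, adjusted p = 0.272).

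Of 24 regulators of claudins, 7 fell (29.2% called, against 24% of all genes tested, 10.8% lower). In this list 0 rose (3 were higher at an unadjusted p below 0.05, 2 by DESeq2 and 0 by limma-voom), and the median was -0.15. Zeb2, a transcriptional repressor of epithelial genes with an antisense neighbour, was at 15.2 ± 0.192 and 8.21 ± 0.565 CPM (log2 fold change -0.89, SE 0.12, adjusted p = 0.00258). Sgk1, a corticosteroid-induced kinase, was at 460.5 ± 139 and 188.7 ± 22.2 CPM (log2 fold change -1.29, SE 0.21, adjusted p = 0.00654). Stk39, a kinase of the WNK pathway, had -0.84 (SE 0.21). Cul3, whose ubiquitin ligase complex with KLHL3 acts on claudin-8, had 0.22 (SE 0.079, adjusted p = 0.0776). The marker sums of principal cells, the distal convoluted tubule and parietal epithelium were each lower in every db/db library than in any db/m library. Called lower were 2 of 8, 4 of 4 and 1 of 3 of these markers, against 10.8% of all genes tested. Aqp2 and Pax2, both called, were the most abundant markers of the principal cell and parietal sums. The part of these cells in the list results was not tested.

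**Figure D4:**
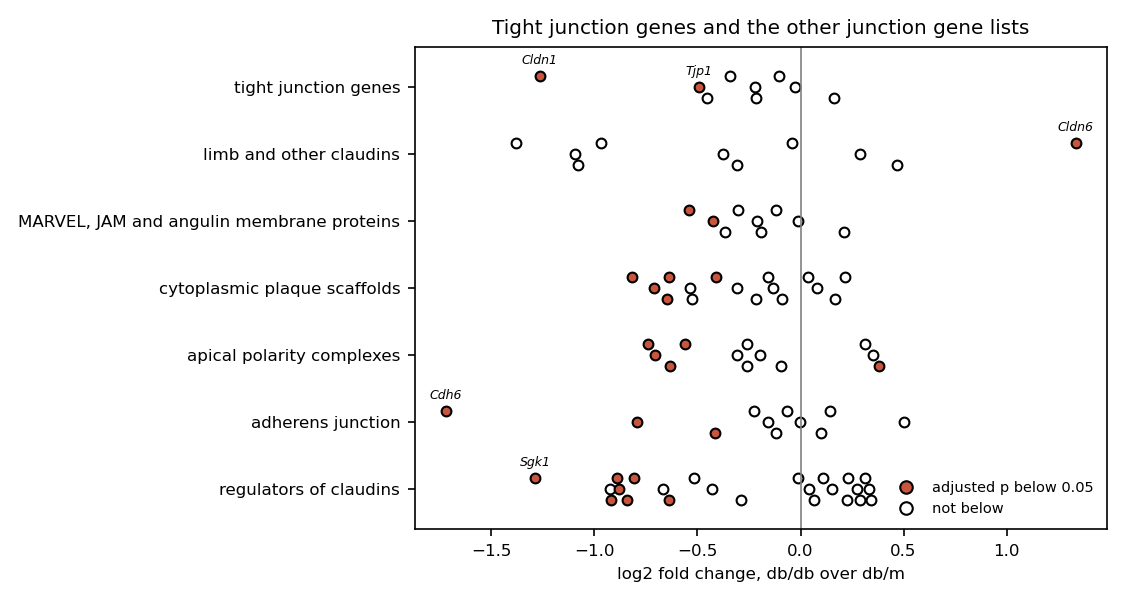
Each point is 1 tested gene, placed by its log2 fold change (db/db over db/m) in the row of its list and filled where the adjusted p was below 0.05. Cldn18 is left out since it had 0 counts in each db/m library, and lower calls outnumber higher ones in every row but that of the other claudins.

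For each of the genes that fell, the 2 tested genes with the most similar profile were named by the smallest root mean square difference between mean-centred log2 CPM over the 6 libraries, among genes with a mean of at least 5 CPM and a symbol that is not of a predicted gene, clone or pseudogene. Beside Cldn1 they were Steap1, a metalloreductase family gene (difference 0.049), and Spns2, a sphingosine-1-phosphate transporter gene that overlaps another gene (0.11). Steap1 was at 6.40, 7.69 and 9.34 CPM under db/m and 3.41, 2.58 and 3.39 CPM under db/db. Beside Tjp1 they were Trim33, a ubiquitin ligase gene (0.019), and Btbd3 (0.029). Trim33 was at 24.8, 24.4 and 25.7 CPM under db/m and 18.1, 17.5 and 18.2 CPM under db/db.

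**Figure D5:**
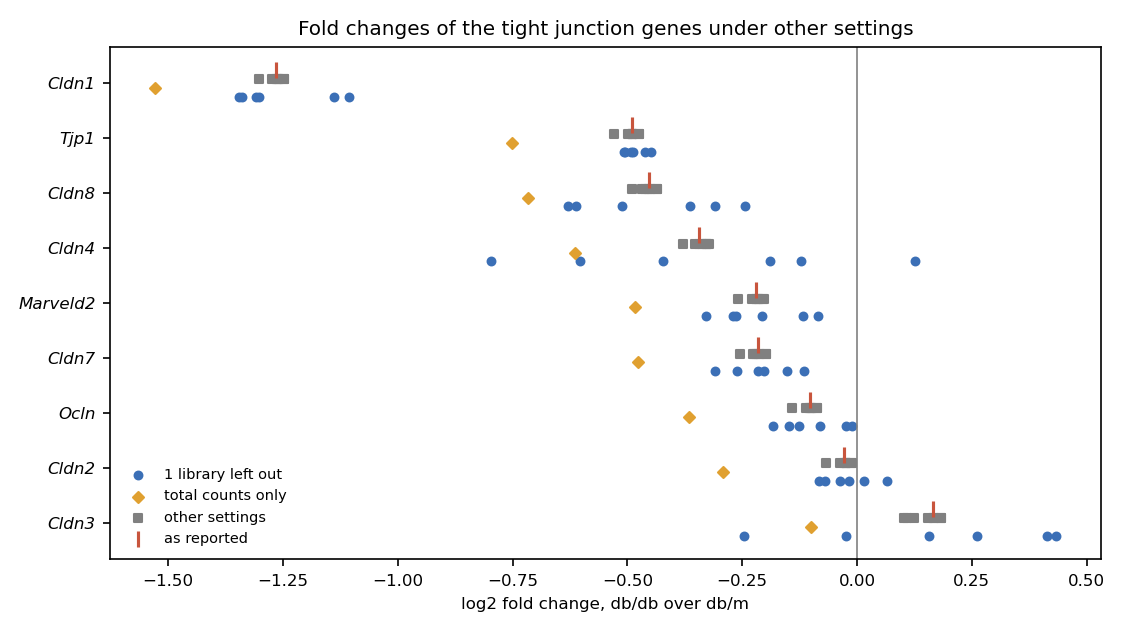
Each row gives the log2 fold changes of 1 gene (horizontal axis) as reported and with 1 library left out, with total counts only and under the other settings that keep all 6 libraries. Cldn1 stays between -1.53 and -1.11 and Tjp1 between -0.75 and -0.45, whereas Cldn2, Cldn3 and Cldn4 lie on both sides of 0.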

How the data were processed

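Polyadenylated RNA of whole kidney was sequenced as 6 strand-specific libraries, per the labels' protocols. The authors deposited a table of raw whole-number counts, with 1 row per gene symbol. The submitters' processing notes name fastp, FastQC, HISAT2, SAMtools, StringTie and DESeq2, without roles. The sources used here do not give the genome build, annotation or counting settings, strand included, so overlapping genes may share counts: Cldn3 overlaps a long noncoding RNA gene, and Ocln and Marveld2 each overlap a small RNA gene. Columns were assigned by name, taking db1 to mean db/db1 and likewise for the others.

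Counts were filtered with filterByExpr (16373 of 24434 symbols kept), scaled by TMM and compared with glmQLFit and glmQLFTest (edgeR 4.0.16, R 4.3.3), without covariates. CPM are counts per TMM-scaled library size. SE is the log2 fold change divided by the square root of F, and 95% intervals use the moderated degrees of freedom. A count of 0 allows up to 3 counts, or 0.0759 to 0.12 CPM, by counting error only. Replicate libraries differed by more than sampling noise, with a chi-square of 15.9 to 59.5 times its degrees of freedom.

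The 9 genes and all lists were chosen with earlier results of these data known. The rule for named genes took all 9 genes, up to 3 called members of each list by smallest p and 1 in the opposite direction, the 2 most similar profiles for each of the 9 genes called, and the 2 most abundant markers of each list, of which only those beside a result are printed. Tjp3, Cldn10, Ncam1, Lepr and the neighbouring genes were named outside that rule. Marker lists for 13 cell types were used. Alternatives were DESeq2 size factors, upper quartile or total count scaling, the DESeq2 1.42.0 Wald test, limma-voom (limma 3.58.1), no filter, a stricter low-count filter, removal of mitochondrial genes, a block for replicate number, each library left out, and both replicates 3 left out.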

Additional observations from a re-analysis of the deposited data

How the results depend on the processing

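Cldn1 and Tjp1 stayed lower in every setting run, and of 144 pairs of gene and setting 135 kept direction and call. Leaving out both replicates 3 left 1 of the 9 genes called lower. Total counts gave 3, and the count was 2 in all other settings run, each fit without 1 library included. Direction changed for Cldn2 (-0.082 to 0.065 with 1 library left out, 0.065 without db/m replicate 3, 0.016 without db/db replicate 3, 0.097 without both), Cldn3 (-0.10 with total counts, -0.25 to 0.43 with 1 library left out, -0.024 without db/m replicate 1, 0.52 without both replicates 3) and Cldn4 (-0.80 to 0.13 with 1 library left out), none of which was called. Cldn7 passed with total counts (-0.48). Without Aqp2 in the principal cell sum the log2 ratio differences became 0.32 (Cldn3), -0.13 (Cldn4), -0.025 (Cldn7) and -0.26 (Cldn8), and without Slc34a1 that of Cldn2 to the proximal sum became -0.065.

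Of the other junction genes, 3 were called higher and 21 lower. These became 1 and 39 with total counts, 1 and 13 with the replicate block, 1 and 9 without both replicates 3, and 1 to 5 and 9 to 20 with 1 library left out. DESeq2 called 6 higher. Over all genes, 2151 higher and 1774 lower calls became 1313 and 973 with the block and 1052 and 660 without both replicates 3. With 1 library left out, the fewest higher calls were 1374 (891 lower, without db/db replicate 3). The fewest lower calls in these fits were 851 (1395 higher, without db/m replicate 2). Fewer libraries were compared in the fits that left libraries out, while the replicate block kept all 6. Other causes were not tested.

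Deviations of same-numbered libraries from their group means correlated at -0.15, 0.057 and 0.14 over 16373 genes. Differently numbered libraries were not compared in this way, so these values cannot decide whether replicate numbers pair the samples. With the replicate block, Cldn1 had -1.26 (adjusted p = 0.0149) and Tjp1 -0.49 (adjusted p = 0.0332), 2 lower and 0 higher among the 9. With 3 libraries a group, the standard errors of Cldn8, Cldn3 and Cldn4 (0.25, 0.35 and 0.42 on the log2 scale) were the largest of the 9 genes and limit what could be detected for them.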
